A study of Homo sapiens with 30 samples.

Results

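The 10 genes described here encode cornified envelope proteins, an enzyme and a protease of the outer epidermis, and the S100A8 and S100A9 pair. All 10 listed symbols were found among the 20114 of the deposited expression table. The genes had been selected on earlier differences of these same log2 levels, and which of those values decided is not recorded. A comparison is therefore taken as used by the choice where a member stood among the 12 largest called changes. Its p-values are not given, and its counts of members past the threshold and medians of members are a description from which nothing is read. The other comparisons carry p-values that rest on this assumption. Some of them are parts of a used comparison, are built from used ones or share libraries with them, so their p-values are not free of the choice. Poly-A RNA had been sequenced in 30 libraries, 15 groups of 2, from an inflammatory breast cancer cell line, SUM190, and its doxorubicin-resistant and paclitaxel-resistant derivatives. For doxorubicin-resistant cells the drug was doxorubicin, at 350 nM or at 1 µM, beside DMSO, the vehicle. For paclitaxel-resistant cells it was 6.5 nM or 10 nM paclitaxel, 15 µM ruxolitinib, or ruxolitinib plus 6.5 nM paclitaxel, beside DMSO. For parental cells it was 65 nM or 1 µM doxorubicin, 2.5 nM or 10 nM paclitaxel, 15 µM ruxolitinib, or ruxolitinib plus 2.5 nM paclitaxel, beside DMSO. The labels give ruxolitinib as 15 µM alone and as 15 nM in both combinations, and the doses are printed as labelled. Drugs went on 24 h after seeding and stayed for 72 h. The labels do not say how the resistant lines were derived or whether each is 1 clone.

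The cornified envelope is the protein shell that replaces the membrane of a keratinocyte as it dies at the skin surface. Its precursors, among them involucrin (IVL) and the small proline-rich SPRR proteins, are joined by transglutaminases such as TGM1, and CASP14 is a caspase of late keratinocytes that helps to process filaggrin rather than to carry out ordinary apoptosis. S100A8 and S100A9 form calprotectin, a calcium-binding dimer of neutrophils, monocytes and inflamed epithelium. AP-1 factors, the FOS and JUN proteins, are textbook activators of SPRR and IVL transcription, doxorubicin poisons topoisomerase II, paclitaxel stabilises microtubules, and ruxolitinib inhibits the kinases JAK1 and JAK2 that activate STAT factors.

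Of the members, 8 lie on chromosome 1, in the order IVL, SPRR1A, SPRR3, SPRR1B, SPRR2D, SPRR2A, S100A9 and S100A8, within a stretch of 20 protein-coding genes, while TGM1 is on chromosome 14 and CASP14 on chromosome 19 (gene order from RefSeq, GRCh38.p14). Promoters of 8 members were matched by symbol in a RefSeq table of the same build, and those of SPRR2D and TGM1 were not. The 6 printed are those that hold the AP-1 pattern TGANTCA, because AP-1 factors are known activators of SPRR and IVL transcription. Each is the 250 bases before the annotated start, 5′ to 3′ on the gene's strand. The windows are chr1:152983831-152984080 on the plus strand for SPRR1A, chr1:153030953-153031202 on the plus strand for SPRR1B, chr1:153057513-153057762 on the minus strand for SPRR2A, chr1:153001499-153001748 on the plus strand for SPRR3, chr1:152908296-152908545 on the plus strand for IVL, and chr19:15049230-15049479 on the plus strand for CASP14. Capitals mark matches to TGANTCA and to the TATA pattern TATAAA.
SPRR1A: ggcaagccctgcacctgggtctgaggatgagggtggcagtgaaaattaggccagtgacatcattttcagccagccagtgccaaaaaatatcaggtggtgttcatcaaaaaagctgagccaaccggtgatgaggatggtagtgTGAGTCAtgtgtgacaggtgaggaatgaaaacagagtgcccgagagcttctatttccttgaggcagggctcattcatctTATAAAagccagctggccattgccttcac
SPRR1B: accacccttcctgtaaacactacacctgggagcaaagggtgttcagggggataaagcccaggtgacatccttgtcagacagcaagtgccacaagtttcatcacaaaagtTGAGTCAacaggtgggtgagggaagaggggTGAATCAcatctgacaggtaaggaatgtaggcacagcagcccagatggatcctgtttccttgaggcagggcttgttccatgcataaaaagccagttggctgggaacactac
SPRR2A: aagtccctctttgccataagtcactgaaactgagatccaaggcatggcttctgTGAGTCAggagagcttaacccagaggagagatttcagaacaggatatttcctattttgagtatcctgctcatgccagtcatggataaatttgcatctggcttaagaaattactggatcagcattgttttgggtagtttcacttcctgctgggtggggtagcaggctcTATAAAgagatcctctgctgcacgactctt
SPRR3: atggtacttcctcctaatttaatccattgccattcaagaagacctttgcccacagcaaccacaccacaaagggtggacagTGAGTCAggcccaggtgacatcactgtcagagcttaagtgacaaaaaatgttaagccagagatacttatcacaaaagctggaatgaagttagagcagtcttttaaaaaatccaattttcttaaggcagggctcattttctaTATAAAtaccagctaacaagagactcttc
IVL: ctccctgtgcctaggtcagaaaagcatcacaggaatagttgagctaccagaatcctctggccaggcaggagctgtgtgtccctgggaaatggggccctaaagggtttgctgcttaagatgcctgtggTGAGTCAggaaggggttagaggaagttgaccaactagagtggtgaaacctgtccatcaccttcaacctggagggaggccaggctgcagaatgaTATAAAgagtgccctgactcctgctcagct
CASP14: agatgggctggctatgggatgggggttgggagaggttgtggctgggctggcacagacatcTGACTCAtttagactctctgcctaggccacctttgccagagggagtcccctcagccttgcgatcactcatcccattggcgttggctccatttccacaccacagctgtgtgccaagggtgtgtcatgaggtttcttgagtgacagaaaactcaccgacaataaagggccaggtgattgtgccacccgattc

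SPRR1B held 2 matches to the AP-1 pattern, which began 141 and 111 bases before the start, and each of the other five held 1. The pattern was present in 6 of the 8 members with a window and in 7.71% of all 35116 RefSeq windows of 300 bases, which run from 250 bases before to 50 bases after a start, searched on both strands. None of the 8 held the STAT pattern TTCNNNGAA, which 7.66% of all windows held. TATAAA was found in 6 of the 8, against 11.5% of all windows, and the ETS core pattern GAGGAA in 6 of the 8, against 27.9%. The 8 members had 10 windows, since S100A8 has several overlapping ones. A member counts where any of its windows matched, while the shares of all windows count each window by itself. SPRR1B and CASP14 were the 2 without TATAAA. No 2 of these patterns overlapped in a printed window. A match is a stretch of letters and not a binding site, and the absence of a match says only that those letters are not in the window.

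**Figure D1:**
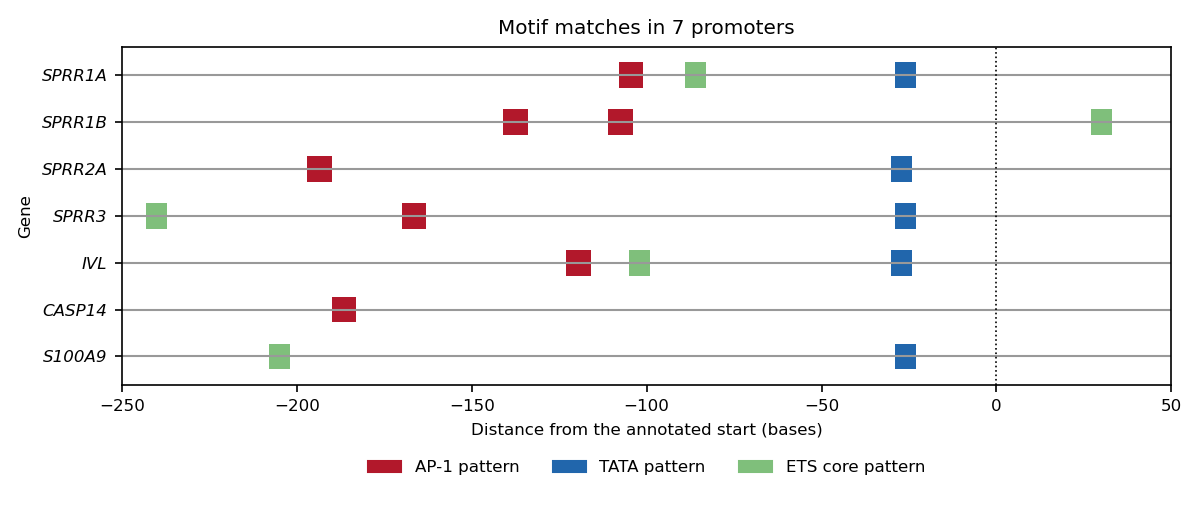
Motif matches in the promoters of 7 of the genes, by distance in bases from the annotated start (dotted line at 0). Red blocks are the AP-1 pattern, blue blocks the TATA pattern and green blocks the ETS core pattern. The AP-1 blocks of the 6 genes lie upstream of the TATA block where a gene has one, and S100A9 has no AP-1 block.

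Libraries held 18443749 to 32669995 reads in genes, and 3 reads, the floor set here for low counts, correspond to 0.0947 to 0.163 CPM. The labels do not say that the libraries of a group came from separate cultures, so p-values reflect only how far such libraries vary, perhaps for technical reasons. Values are CPM (each gene's reads relative to its library's total) as scaled by the authors, and differences are those of log2(CPM + 1) with their standard error, which are smaller than log2 ratios where CPM is low. Calls are limma tests with an adjusted p (Benjamini-Hochberg, over the 12743 genes tested) under 0.05, and all 10 members were among those genes. Groups of 2 libraries often do not overlap where no call is made. The share of all genes without overlap was not counted, so a lack of overlap is a description only. Levels of different genes are not compared, since CPM is not per length. By chi-square per degree of freedom of the reads, which also grows with depth, the parental DMSO libraries differed from each other most, at 36.2, against 2.19 to 24.4 in the other groups. Their Pearson correlation of log2 values was 0.9973, and other groups were lower, such as parental cells at 1 µM doxorubicin (0.9965). Of the 10 members, 9 were higher in the second parental DMSO library, with ratios from 0.751 for TGM1 to 1.56 for SPRR1A. The results that rest on that group are therefore given without each of its libraries too. Luminal epithelial markers, 8 genes including KRT8, EPCAM, GATA3 and ERBB2, summed to 4410 to 8230 CPM in every library. Of 5 basal and keratinocyte markers, KRT5 reached at most 1.5 CPM, KRT14 at most 0.931 and KRT1 at most 0.0387, while KRT10 was at 14.5 to 26.7 CPM and TP63 at 1.89 to 14.5 CPM. LOR, the major precursor of epidermal envelopes, had 0 reads in all 30 libraries, and FLG reached at most 0.578 CPM. In bulk RNA, fewer cells with a transcript and less of it per cell cannot be told apart.

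**Figure D2:**
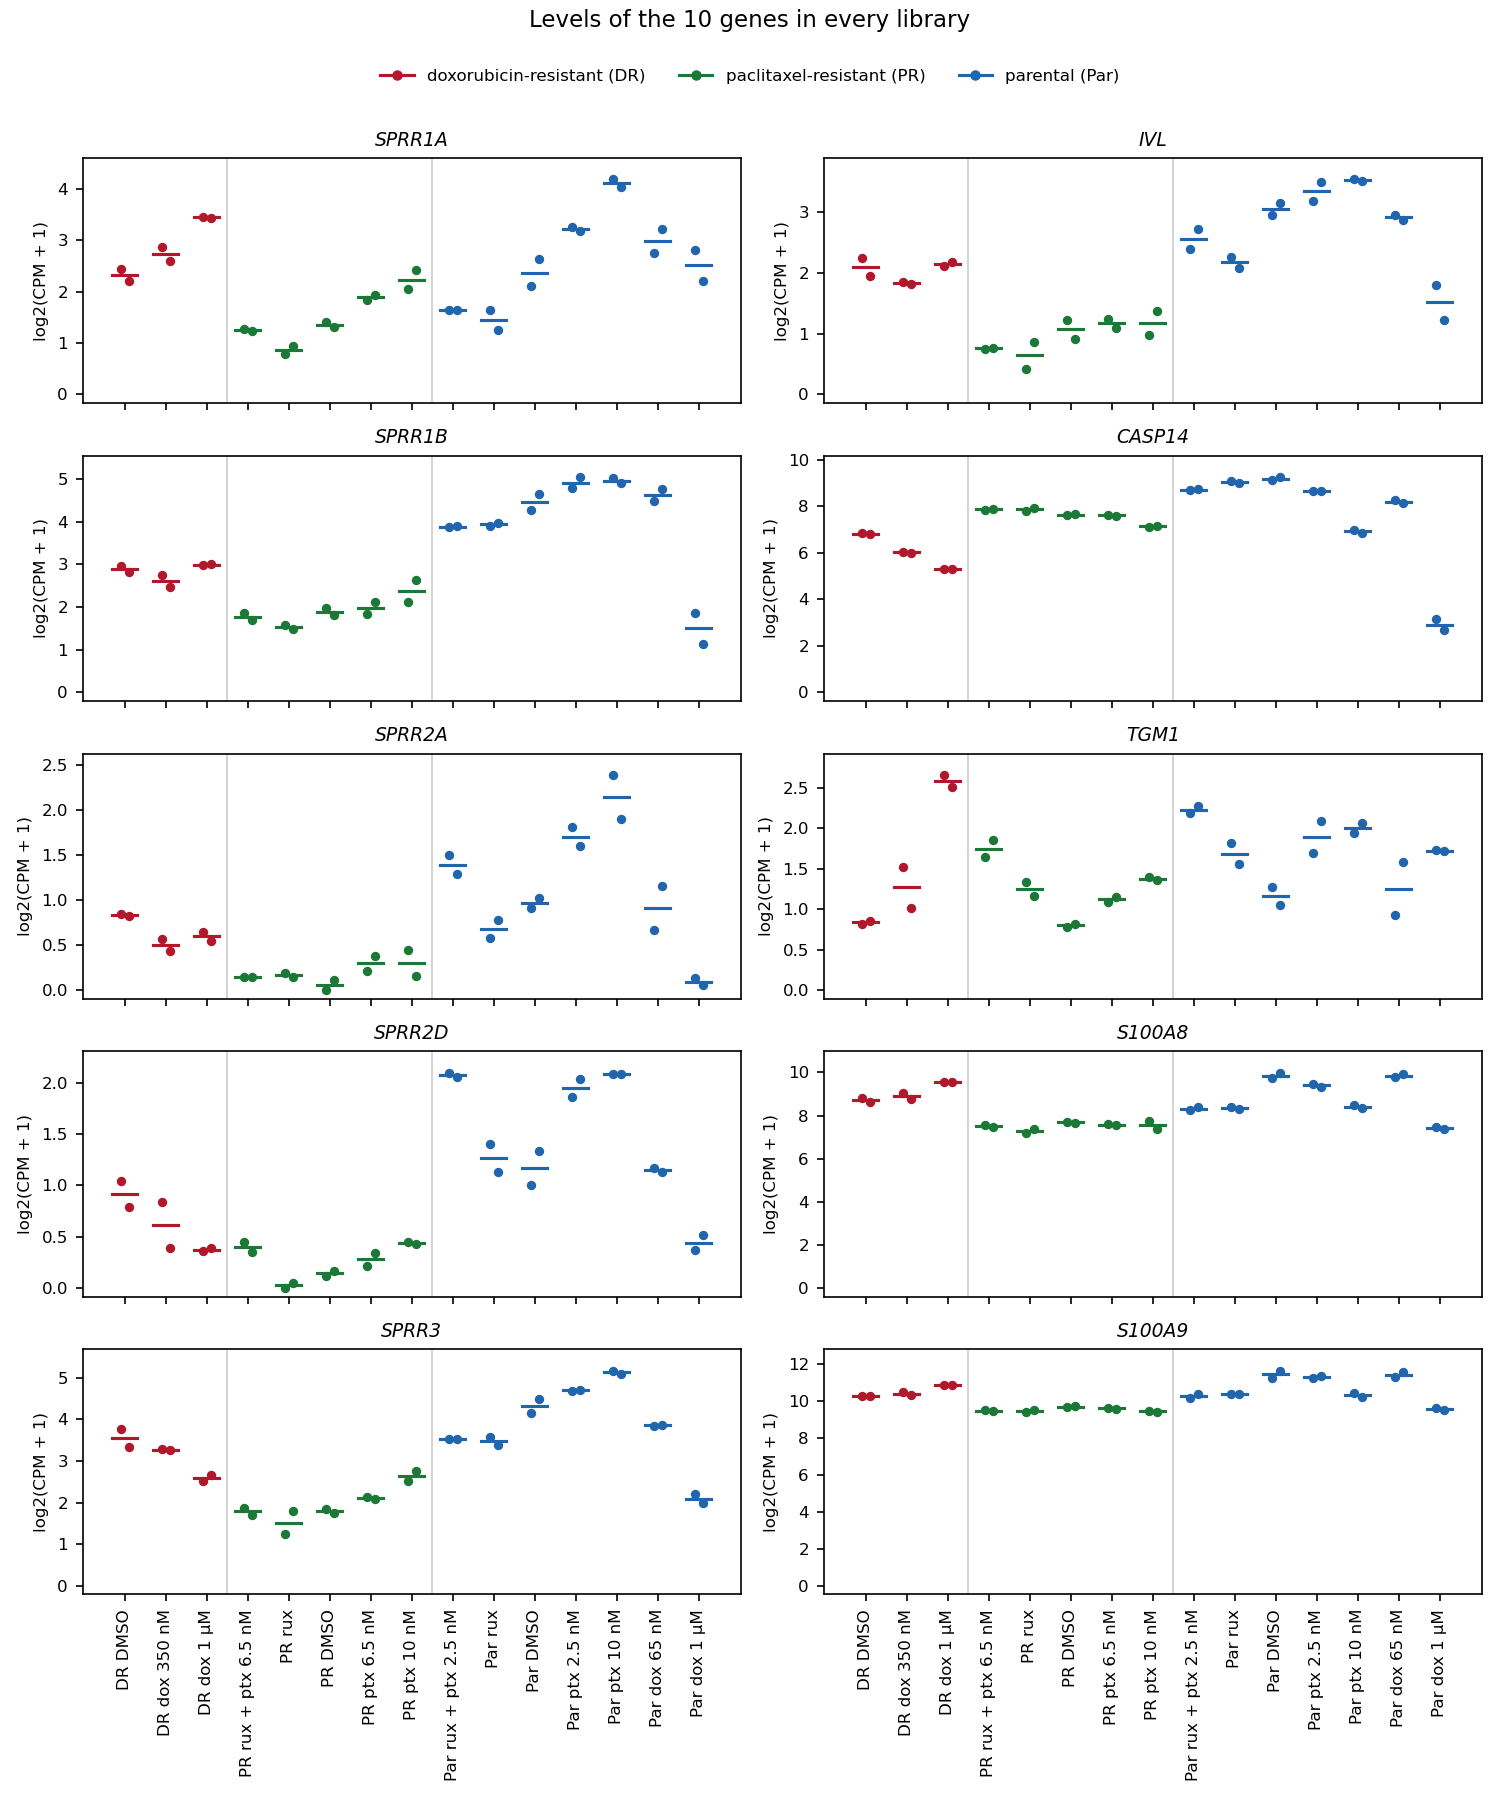
Level of each gene in every library as log2(CPM + 1), with doxorubicin-resistant groups in red, paclitaxel-resistant in green and parental in blue. Points are libraries and bars are means of 2, and CASP14 is lowest in parental cells at 1 µM doxorubicin while SPRR1A, SPRR1B, SPRR3 and IVL are highest in parental cells at 10 nM paclitaxel.

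The members did not follow 1 pattern across the groups. CASP14 had the widest range on the log2(CPM + 1) scale. It averaged 6.63 ± 1.87 CPM in parental cells at 1 µM doxorubicin and 575 ± 38.2 CPM in parental cells in DMSO (SD, n = 2, as for all means here). In between, the order from high to low was parental cells with ruxolitinib (522), with ruxolitinib and paclitaxel (416), with 2.5 nM paclitaxel (399) and with 65 nM doxorubicin (290), then paclitaxel-resistant cells with ruxolitinib and paclitaxel (232), with ruxolitinib (231), in DMSO (197) and at 6.5 nM (195) and 10 nM paclitaxel (140), then parental cells at 10 nM paclitaxel (121), and doxorubicin-resistant cells in DMSO (112) and at 350 nM (63.7) and 1 µM doxorubicin (38.2). Of the 14 pairs of neighbours in that order, 2 had overlapping libraries. They were the ruxolitinib groups of paclitaxel-resistant cells, and DMSO and 6.5 nM paclitaxel in the same line.

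SPRR1A, whose product is a cross-linked bridging precursor, was highest in parental cells at 10 nM paclitaxel (16.3 ± 1.25 CPM) and next highest in doxorubicin-resistant cells at 1 µM doxorubicin (9.93 ± 0.151 CPM). Its lowest level was in paclitaxel-resistant cells with ruxolitinib (0.824 ± 0.153 CPM), and 8 of its 14 neighbouring pairs overlapped. SPRR1B, SPRR3 and IVL were also highest at 10 nM paclitaxel in parental cells, at 30.1 ± 1.83, 34.1 ± 1.25 and 10.6 ± 0.114 CPM, and 7, 6 and 7 of their 14 neighbouring pairs overlapped. TGM1, the transglutaminase, was highest in doxorubicin-resistant cells at 1 µM doxorubicin (5.01 ± 0.413 CPM), with 10 overlapping pairs. SPRR2A and SPRR2D, 2 precursors of the SPRR2 group, were carried by 0 to 103 and 0 to 83 reads per library, so their values rest on few reads. S100A8 and S100A9 were highest in parental cells in DMSO, at 929 ± 108 and 2833 ± 539 CPM, with 7 and 10 overlapping pairs.

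Across the 15 group means, log2 levels of SPRR1B, SPRR3 and IVL had Pearson correlations of 0.945 to 0.957 with each other, and S100A8 and S100A9 one of 0.977. SPRR1A correlated at -0.324 with CASP14 and at 0.593 with SPRR1B. These are descriptions over 15 points that share control libraries. Among 10930 other genes with a mean of at least 5 CPM in some group, the 3 most like CASP14 were CHST11 (0.987), BNIP3L (0.978) and PDXK (0.975), and the 3 most like IVL were SEMA7A (0.980), FSTL3 (0.979) and EHD4 (0.967). SEMA7A was also among the 3 most like SPRR1B and SPRR3, both at 0.966. The genes most like SPRR1A were CD68 (0.947), CCDC137 (0.920) and TRIM16 (0.908), and no gene exceeded 0.813 with TGM1.

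The first question is how the lines differed without drug. In DMSO, the precursors stood lower in paclitaxel-resistant cells than in either of the other lines, while CASP14 was lowest in doxorubicin-resistant cells. SPRR1B had 2.91 and 2.51 CPM in paclitaxel-resistant cells, against 18.3 and 23.9 CPM in parental cells. SPRR3 had 2.57 and 2.39 CPM in paclitaxel-resistant cells, against 16.8 and 21.4 CPM in parental cells. IVL had 1.35 and 0.89 CPM in paclitaxel-resistant cells, against 6.8 and 7.93 CPM in parental cells. None of these groups overlapped, and the differences were -2.57 ± 0.19, -2.52 ± 0.15 and -1.99 ± 0.18. S100A8 had 208 and 203 CPM in paclitaxel-resistant cells and 853 and 1006 CPM in parental cells, a difference of -2.17 ± 0.11, and S100A9 differed by -1.75 ± 0.10. SPRR2A had 0 and 2 reads and SPRR2D 2 and 3 reads in paclitaxel-resistant cells, against 22 and 32 reads and 25 and 47 reads in parental cells. Of the members, 0 were called higher and 9 lower, among 16.3% of all genes called higher and 16.3% lower, and SPRR1B was among the changes behind the choice, so nothing is read from the count. TGM1 was the member not called (-0.36 ± 0.18). The members' median difference was -1.65, against -0.011 over all tested genes, and their median log2 ratio of CPM was -2.45 with SPRR2A and SPRR2D at 3 reads per library. Since the genes were chosen on such differences, these medians are a description too.

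Doxorubicin-resistant cells in DMSO had 113 and 110 CPM of CASP14, against 548 and 602 CPM in parental cells. That difference of -2.35 ± 0.10 was the largest among the members and one behind the choice. SPRR1B had 6.74 and 6.08 CPM in doxorubicin-resistant cells and 18.3 and 23.9 CPM in parental cells, and S100A8 had 443 and 395 CPM in doxorubicin-resistant cells and 853 and 1006 CPM in parental cells. Neither pair of groups overlapped, and the differences were -1.57 ± 0.19 and -1.14 ± 0.11. SPRR1A had 4.46 and 3.62 CPM in doxorubicin-resistant cells and 3.32 and 5.19 CPM in parental cells, ranges that overlap. The calls were 0 higher and 6 lower, among 12.3% of all genes called higher and 15.2% lower. Without either parental DMSO library, the counts were 6 lower here and 9 lower for paclitaxel-resistant cells, as with both.

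Between the resistant lines, doxorubicin-resistant cells had higher levels of 8 members and a lower level of CASP14, among 15.6% of all genes called higher and 18.4% lower. This comparison was not itself taken as used by the choice, but it equals the difference of the comparisons with parental cells above, which were. SPRR3 had 12.7 and 9.19 CPM in doxorubicin-resistant cells, against 2.57 and 2.39 CPM in paclitaxel-resistant cells, and rose by 1.76 ± 0.15 (limma adjusted p = 2.45e-09). SPRR1B had 6.74 and 6.08 CPM in doxorubicin-resistant cells, against 2.91 and 2.51 CPM in paclitaxel-resistant cells (1.00 ± 0.19). IVL had 3.73 and 2.88 CPM in doxorubicin-resistant cells, against 1.35 and 0.89 CPM in paclitaxel-resistant cells (1.02 ± 0.18, limma adjusted p = 1.14e-04). In each of these precursors both doxorubicin-resistant libraries stood above both paclitaxel-resistant ones. SPRR1A rose by 0.97 ± 0.19 and S100A8 by 1.02 ± 0.11 (limma adjusted p = 3.54e-04 and 9.53e-08), and S100A9 by 0.59 ± 0.10. SPRR2A had 21 and 20 reads in doxorubicin-resistant cells, against 0 and 2 in paclitaxel-resistant cells, and SPRR2D 28 and 19 reads in doxorubicin-resistant cells, against 2 and 3 in paclitaxel-resistant cells, and both were called higher. CASP14 had 113 and 110 CPM in doxorubicin-resistant cells, against 194 and 199 CPM in paclitaxel-resistant cells, and fell by 0.81 on the log2 scale (SE 0.10). No p-value is given for SPRR1B and CASP14, the genes that put those comparisons behind the choice. TGM1 had 0.762 and 0.808 CPM in doxorubicin-resistant cells and 0.717 and 0.769 CPM in paclitaxel-resistant cells, and did not pass the test (0.03 ± 0.18, limma adjusted p = 0.912). The members' median difference was 0.87, against 0.0046 over all tested genes, and the median log2 ratio of CPM with SPRR2A and SPRR2D at 3 reads was 1.3. All told, 9 members were called without each of the 4 libraries in turn. These tests are built from the comparisons behind the choice, so their p-values, counts and medians are not free of it.

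Other genes of cornification were counted in lists chosen with earlier results known. The shares of all genes called in a comparison are the background of these counts too. Genes are named from the largest called changes of a list, so their p-values are those of picked genes. Of 108 genes in 5 lists, 107 were in the table and 71 were tested, and 12 of the 29 envelope precursors that were not tested had 0 reads in every library. Between the resistant lines, 7 of 11 tested precursors were higher in doxorubicin-resistant cells and 1 lower, and the median of the list was 0.45. Of all genes, 15.6% were called higher and 18.4% lower there. PI3, the elastase inhibitor elafin that is cross-linked into envelopes, averaged 17.5 ± 2.80 CPM in doxorubicin-resistant cells and 7.70 ± 0.196 CPM in paclitaxel-resistant cells (1.08 ± 0.11, limma adjusted p = 2.96e-08). SCEL, which encodes the precursor sciellin, averaged 130 ± 5.27 CPM in doxorubicin-resistant cells and 69.4 ± 4.42 CPM in paclitaxel-resistant cells (0.90 ± 0.11, limma adjusted p = 9.08e-07). Of 22 regulators, 7 were higher and 6 lower. TP63, the master regulator of stratified epithelium, averaged 3.48 ± 0.619 CPM in doxorubicin-resistant cells and 14.2 ± 0.0499 CPM in paclitaxel-resistant cells, and GRHL3, a factor of barrier formation, averaged 5.95 ± 0.906 CPM in doxorubicin-resistant cells and 2.31 ± 0.0491 CPM in paclitaxel-resistant cells. The log2 differences were -1.77 ± 0.14 and 1.06 ± 0.13 (limma adjusted p = 7.55e-10 and 3.81e-07).

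**Figure D3:**
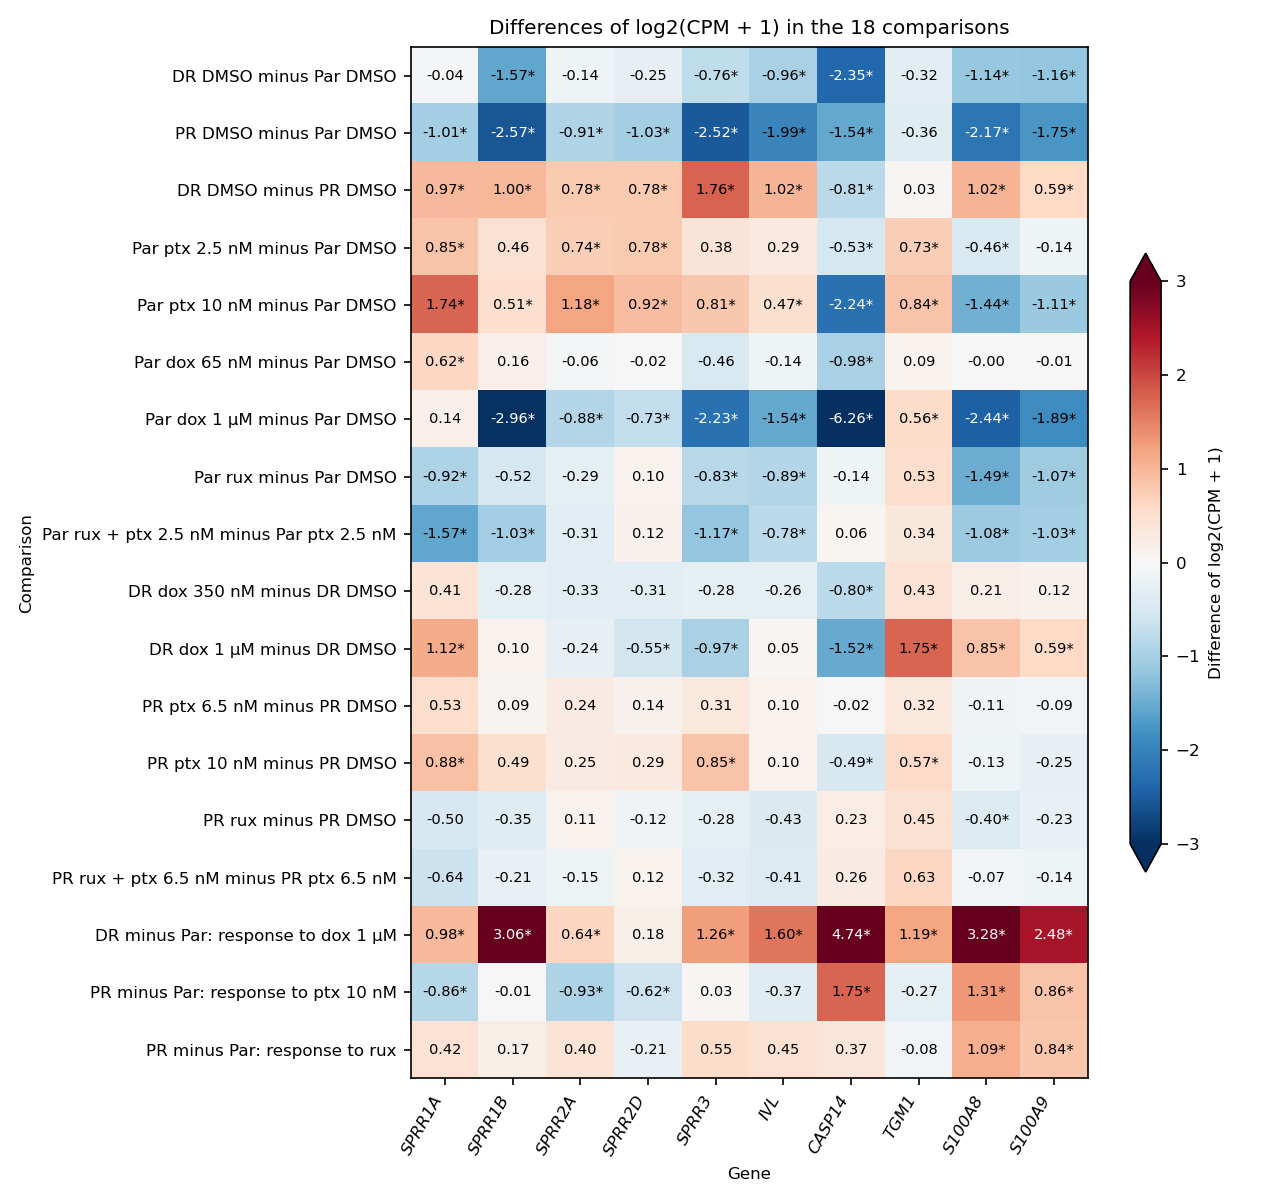
Differences of log2(CPM + 1) for each gene (columns) in the 18 comparisons (rows). Red is higher and blue lower in the first-named group, and an asterisk marks a limma adjusted p under 0.05. Asterisks are a description from which nothing is read in the 10 rows used by the choice. Those rows are each resistant line against parental cells in DMSO, and the differences of responses between lines. Others are, in parental cells, both doxorubicin doses, the higher paclitaxel dose and ruxolitinib added to paclitaxel. The last is the lower doxorubicin dose in doxorubicin-resistant cells. The same holds where the text withholds a gene's p-value in another row. In the rows for 10 nM paclitaxel and 1 µM doxorubicin in parental cells, CASP14, S100A8 and S100A9 are blue in both, while SPRR1B, SPRR3 and IVL are red in the first and blue in the second.

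Paclitaxel split the members. In parental cells at 2.5 nM, 4 members were higher than in DMSO and 2 were lower, among 9.71% of all genes called higher and 17.1% lower. This comparison was not itself taken as used by the choice, but its libraries enter comparisons that were. Its 2.5 nM libraries are the reference of the comparison with added ruxolitinib, used through SPRR1A. Its DMSO libraries are the reference of others used through CASP14 or SPRR1B. The p-values, counts and median given here are therefore not free of the choice. SPRR1A had 8.61 and 8.06 CPM with paclitaxel, against 3.32 and 5.19 CPM in DMSO, and rose by 0.85 ± 0.19 (limma adjusted p = 0.00378). SPRR2D had 2.64 and 3.11 CPM with paclitaxel and 1.01 and 1.51 CPM in DMSO (0.78 ± 0.14, limma adjusted p = 7.27e-04). SPRR2A had 2.51 and 2.04 CPM with paclitaxel and 0.890 and 1.03 CPM in DMSO (0.74 ± 0.16, limma adjusted p = 0.00278). TGM1 rose too, with 2.23 and 3.27 CPM under paclitaxel, against 1.42 and 1.06 CPM in DMSO (0.73 ± 0.18, limma adjusted p = 0.00596). The groups did not overlap for any of these 4. CASP14 had 398 and 399 CPM with paclitaxel, against 548 and 602 CPM in DMSO, and fell by 0.53 on the log2 scale (SE 0.10, limma adjusted p = 0.00136), and S100A8 fell by 0.46 (SE 0.11, limma adjusted p = 0.00573). SPRR1B (0.46 ± 0.19), SPRR3 (0.38 ± 0.15), IVL (0.29 ± 0.18) and S100A9 (-0.14 ± 0.10) did not pass the test. The members' median was 0.42, against -0.015 over all tested genes.

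The rises at this dose depended on the parental DMSO libraries. Without the first of them 2 members were called higher and 2 lower, and the adjusted p was 0.132 for SPRR1A and 0.0532 for SPRR2A. Without the second, 6 were higher and 2 lower. The change ran through the whole table, which had 3414 called genes with both, 476 without the first and 5171 without the second. Without the second paclitaxel library, the adjusted p was 0.136 for TGM1 and 0.104 for S100A8. Correcting for transcript length and GC gave SPRR1A 0.35 (limma adjusted p = 0.106). Of the listed genes, 5 of 11 other precursors were higher and 0 lower, among them SPRR2E, at 2.36 ± 0.0956 CPM with paclitaxel and 0.723 ± 0.163 CPM in DMSO (0.97 ± 0.14, limma adjusted p = 9.15e-05), and LCE3D, a late envelope gene, at 2.73 ± 0.540 CPM with paclitaxel and 1.1 ± 0.179 CPM in DMSO (0.83 ± 0.16, limma adjusted p = 0.00163). Of 22 regulators, 13 were higher and 1 lower. FOSL1, an AP-1 subunit, had 8.49 and 9.44 CPM with paclitaxel, against 3.84 and 4.64 CPM in DMSO (0.93 ± 0.17, limma adjusted p = 8.54e-04). KLF4, a factor of the skin barrier, averaged 129 ± 1.62 CPM with paclitaxel and 93.3 ± 8.01 CPM in DMSO (0.47 ± 0.07, limma adjusted p = 1.36e-04). All 5 lists together had 26 calls, and between 6 and 35 when each of the 4 libraries was left out.

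At 10 nM paclitaxel SPRR1A stood higher, and CASP14 lower, than at 2.5 nM. The comparison with DMSO was behind the choice through CASP14, so no p-value is given. SPRR1A had 17.2 and 15.4 CPM with paclitaxel, against 3.32 and 5.19 CPM in DMSO (1.74 ± 0.19). SPRR3 had 35.0 and 33.3 CPM with paclitaxel and 16.8 and 21.4 CPM in DMSO (0.81 ± 0.15). CASP14 had 127 and 116 CPM with paclitaxel and 548 and 602 CPM in DMSO (-2.24 ± 0.10). S100A8 had 354 and 328 CPM with paclitaxel and 853 and 1006 CPM in DMSO (-1.44 ± 0.11). The groups did not overlap for these 4 genes. As a description, 7 members were past the threshold and higher and 3 lower, among 20.1% of all genes higher and 28.1% lower. The differences of SPRR1B (0.51 ± 0.19) and IVL (0.47 ± 0.18) were the smallest. Without the first parental DMSO library 5 members were higher and 3 lower, and without the second 7 and 3. Myeloid markers summed to 4.13 and 2.79 CPM with paclitaxel and 0.567 and 1.19 CPM in DMSO, and their part in the S100A8 and S100A9 values was not tested. Beside these values, FOSL1 had 17.3 and 13.1 CPM with paclitaxel, against 3.84 and 4.64 CPM in DMSO, and LCE3D averaged 6.24 ± 0.598 CPM with paclitaxel and 1.1 ± 0.179 CPM in DMSO.

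In paclitaxel-resistant cells 6.5 nM paclitaxel called none of the 10 members by limma, among 0.0942% of all genes, and none by limma-voom on recovered reads. At an unadjusted p under 0.05, for which the share of all genes was not counted, there was 1. It was SPRR1A, with 2.60 and 2.84 CPM under paclitaxel and 1.64 and 1.5 CPM in DMSO (0.53 ± 0.19). At 10 nM, 3 members were higher and 1 lower, among 6.62% of all genes called higher and 6.99% lower. Neither dose was itself taken as used by the choice, but 10 nM enters the difference of paclitaxel responses between the lines, which was. SPRR3 had 4.77 and 5.81 CPM at 10 nM, against 2.57 and 2.39 CPM in DMSO (0.85 ± 0.15, limma adjusted p = 5.16e-04). SPRR1A had 3.15 and 4.37 CPM at 10 nM and 1.64 and 1.5 CPM in DMSO (0.88 ± 0.19, limma adjusted p = 0.00337). TGM1 had 1.62 and 1.56 CPM at 10 nM and 0.717 and 0.769 CPM in DMSO (0.57 ± 0.18, limma adjusted p = 0.0335). CASP14 had 138 and 141 CPM at 10 nM, against 194 and 199 CPM in DMSO, and fell by 0.49 on the log2 scale (SE 0.10). No p-value is given for CASP14, which put that difference behind the choice. Both 10 nM libraries lay outside the DMSO range for each of these 4. The members' median was 0.27, against close to 0 over all tested genes, and the median log2 ratio with SPRR2A and SPRR2D at their floor was 0.81. The adjusted p of TGM1 was between 0.0986 and 0.159 without each of the 4 libraries, and that of SPRR1A was 0.064 without the second 10 nM library.

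Of the other precursors, 4 were higher and 1 lower at 10 nM in these cells, and PI3 averaged 19.0 ± 1.299 CPM at 10 nM and 7.70 ± 0.196 CPM in DMSO (1.20 ± 0.11, limma adjusted p = 7.95e-08). Of the enzymes, 0 were higher and 3 lower, with TGM2, the tissue transglutaminase, at 10.5 ± 1.49 CPM at 10 nM and 29.9 ± 2.10 CPM in DMSO (-1.42 ± 0.14, limma adjusted p = 1.60e-07). OVOL1, a repressor of epidermal progenitor genes, averaged 6.03 ± 0.420 CPM at 10 nM and 2.79 ± 0.520 CPM in DMSO (0.90 ± 0.14, limma adjusted p = 1.00e-04), and 6 of 22 regulators were higher and 0 lower.

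The response to 10 nM paclitaxel differed between paclitaxel-resistant and parental cells for CASP14, by 1.75, for S100A8, by 1.31, and for S100A9, by 0.86, each of which stood less far below DMSO in paclitaxel-resistant cells. For SPRR1A (-0.86), SPRR2A (-0.93) and SPRR2D (-0.62) the difference from DMSO was smaller there on the log2(CPM + 1) scale. The differences for the SPRR genes lie at levels where the added 1 limits the scale, and on recovered reads by limma-voom SPRR2A and SPRR2D had differences of 0.48 and 0.25 in the other direction. In all, 3 members were called higher and 3 lower, among 6.87% of all genes called higher and 3.88% lower, and CASP14 was behind the choice. With a pseudocount of 0.25 CPM or on recovered reads, the calls were the 3 higher ones. Without the first parental DMSO library 3 members were higher and 1 lower, and without the second 3 and 3.

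Doxorubicin at 1 µM gave opposite values of S100A8 and S100A9 in the 2 lines. In doxorubicin-resistant cells, S100A8 had 761 and 746 CPM at 1 µM, against 443 and 395 CPM in DMSO, and rose by 0.85 ± 0.11. No p-value is given for S100A8, since this is a part of the difference of responses that it put behind the choice. S100A9 had 1878 and 1916 CPM at 1 µM, against 1263 and 1253 CPM in DMSO (0.59 ± 0.10, limma adjusted p = 6.12e-05). In parental cells S100A8 had 176 and 165 CPM at 1 µM and 853 and 1006 CPM in DMSO, and S100A9 had 791 and 729 CPM at 1 µM and 2452 and 3215 CPM in DMSO. In neither line did the libraries at 1 µM overlap with those in DMSO for these genes. Myeloid markers, the other known source of these transcripts, summed over 12 genes to 7.13 and 1.78 CPM in doxorubicin-resistant cells at 1 µM and 1.18 and 1.00 CPM in DMSO, and to 8.91 and 8.96 CPM in parental cells at 1 µM and 0.567 and 1.19 CPM in DMSO. TYROBP had 0 reads in all 30 libraries, FCN1 in 29 and AIF1 in 28. Others of the list were detected, with PTPRC at up to 5.96 CPM, CD14 at up to 5.2 CPM and ITGAM at up to 1.69 CPM. The part of the myeloid markers in these values was not tested.

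Further members moved in doxorubicin-resistant cells at 1 µM. This comparison was not itself taken as used by the choice, but it enters the difference of doxorubicin responses between the lines, which was. In it, 4 members were called higher and 3 lower, among 19.1% of all genes called higher and 19.9% lower. TGM1 had 5.30 and 4.72 CPM at 1 µM, against 0.762 and 0.808 CPM in DMSO (1.75 ± 0.18, limma adjusted p = 6.51e-08). SPRR1A had 10.0 and 9.82 CPM at 1 µM and 4.46 and 3.62 CPM in DMSO (1.12 ± 0.19, limma adjusted p = 6.77e-05). SPRR3 was lower, with 4.76 and 5.33 CPM at 1 µM, against 12.7 and 9.19 CPM in DMSO, and fell by 0.97 on the log2 scale (SE 0.15, limma adjusted p = 2.44e-05). CASP14 had 38.2 and 38.3 CPM at 1 µM and 113 and 110 CPM in DMSO, and fell by 1.52 (SE 0.10), without a p-value for the same reason as S100A8. No groups of these 4 genes overlapped. SPRR2D fell by 0.55 (SE 0.14, limma adjusted p = 0.00356), which was 0.0724 without the first DMSO library. SPRR1B (0.10 ± 0.19), SPRR2A (-0.24 ± 0.16) and IVL (0.05 ± 0.18) did not pass the test. The members' median was 0.08, against close to 0 over all tested genes. At 350 nM, where CASP14 was behind the choice, it had 64.5 and 63.0 CPM, against 113 and 110 CPM in DMSO (-0.80 ± 0.10), and it was the 1 member called, among 2.39% of all genes called higher and 1.43% lower.

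Among the listed genes in doxorubicin-resistant cells at 1 µM, 8 of 14 other S100 genes and receptors were higher and 0 lower, with a median of 0.50. Of all genes, 19.1% were called higher and 19.9% lower there. S100A7, psoriasin, averaged 15.9 ± 0.636 CPM at 1 µM and 3.55 ± 2.05 CPM in DMSO (1.97 ± 0.25, limma adjusted p = 1.25e-06), and its mRNA has the near-identical neighbour S100A7A, which had 2.15 ± 0.455 CPM at 1 µM and 0.288 ± 0.191 CPM in DMSO. Of 22 regulators, 11 were higher and 3 lower. HOPX, a homeodomain protein of differentiating keratinocytes, averaged 26.3 ± 1.33 CPM at 1 µM and 3.90 ± 0.0810 CPM in DMSO (2.48 ± 0.15, limma adjusted p = 4.18e-11), and OVOL1 averaged 13.8 ± 0.816 CPM at 1 µM and 4.40 ± 0.457 CPM in DMSO (1.45 ± 0.14, limma adjusted p = 2.34e-08). Of 9 other caspases, 5 were higher and 0 lower, with the inflammatory caspase CASP1 at 23.4 ± 2.25 CPM at 1 µM and 16.7 ± 1.21 CPM in DMSO (0.46 ± 0.10, limma adjusted p = 5.91e-04). Precursors were mixed, with 5 of 11 higher and 2 lower.

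**Figure D4:**
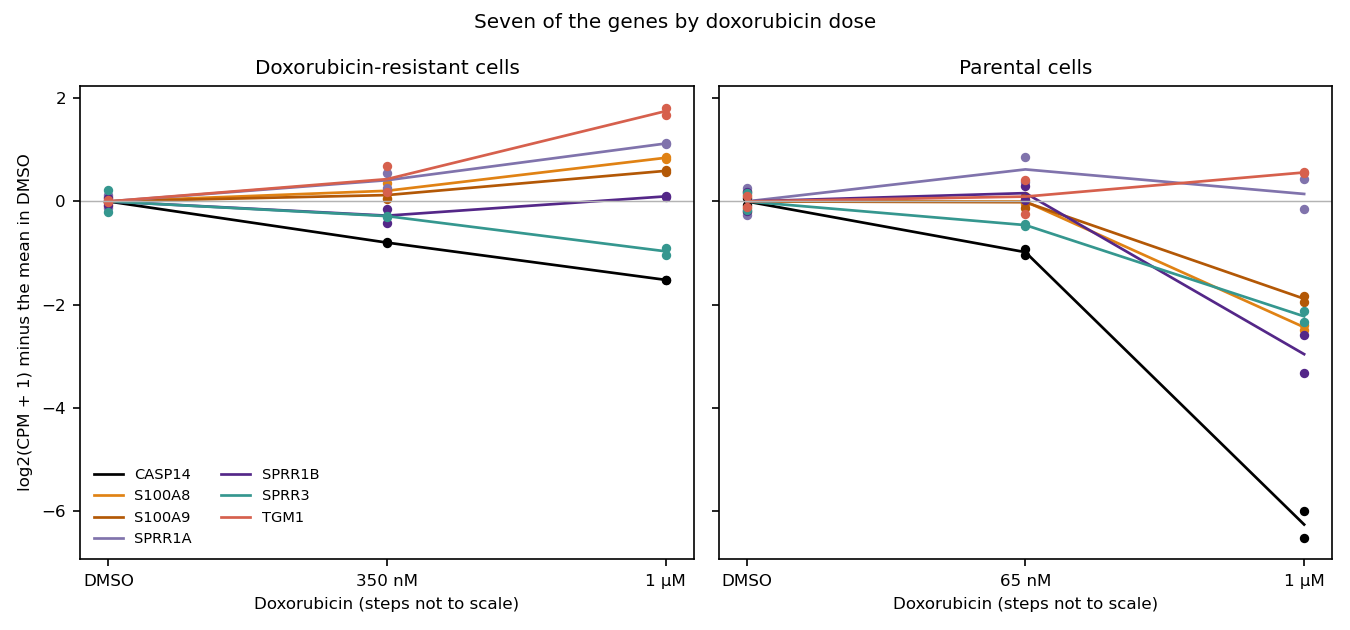
Levels of 7 of the genes by doxorubicin dose as log2(CPM + 1) minus the mean in DMSO, in doxorubicin-resistant cells on the left and parental cells on the right, with points for libraries and lines through means of 2. At 1 µM, S100A8 and S100A9 lie above 0 in doxorubicin-resistant cells and below 0 in parental cells, and CASP14 lies below 0 in both.

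In parental cells, doxorubicin comparisons were behind the choice through CASP14 and are given without p-values. CASP14 had 548 and 602 CPM in DMSO, 302 and 279 CPM at 65 nM and 7.95 and 5.30 CPM at 1 µM. The mean at 1 µM was 86.8-fold lower than in DMSO (-6.26 ± 0.10 on the log2 scale). SPRR1B had 2.65 and 1.18 CPM at 1 µM, against 18.3 and 23.9 CPM in DMSO (-2.96 ± 0.19), and SPRR3 had 3.61 and 2.95 CPM at 1 µM, against 16.8 and 21.4 CPM in DMSO (-2.23 ± 0.15). IVL, SPRR2A and SPRR2D were lower too, and SPRR2A was down to 2 and 1 reads. SPRR1A was not, with 6.02 and 3.65 CPM at 1 µM and 3.32 and 5.19 CPM in DMSO, ranges that overlap (0.14 ± 0.19), but a correction for GC content and length turned it to -0.60. TGM1 had 2.31 and 2.28 CPM at 1 µM and 1.42 and 1.06 CPM in DMSO (0.56 ± 0.18). As a description, 1 member was past the threshold and higher and 8 lower at 1 µM, among 34.3% of all genes higher and 41.5% lower, and 1 higher (SPRR1A, 0.62 ± 0.19) and 1 lower at 65 nM, among 5.21% and 5.94%. At 1 µM without the first parental DMSO library the counts were 1 and 8, and without the second 0 and 8. At 65 nM they were 0 and 2 without the first, and 1 and 1 without the second, while all genes had 494 and 2531 calls, against 1421 with both. FOSL1 had 5.16 and 4.6 CPM at 1 µM, against 3.84 and 4.64 CPM in DMSO.

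SPRR1A and SPRR1B, which lie on either side of SPRR3 and share 25 of the 221 words of 50 bases in SPRR1A's transcript (11.3%), did not keep 1 ratio. The ratio of SPRR1A to SPRR1B CPM was 1.40 and 1.47 in doxorubicin-resistant cells at 1 µM and 0.595 and 0.661 in DMSO. At 350 nM in those cells it was 1.11 in both libraries. It was 2.27 and 3.10 in parental cells at 1 µM doxorubicin, 0.547 and 0.535 at 10 nM paclitaxel and 0.181 and 0.217 in DMSO. In paclitaxel-resistant cells it was 1.00 and 0.852 at 6.5 nM paclitaxel and 0.565 and 0.597 in DMSO. Reads in shared words may have been counted for either gene. SPRR2A and SPRR2D share 31.1% and 26.8% of their words with other SPRR2 genes, which makes their separate values less certain, and SPRR3 shares none. The ratio of S100A9 to S100A8 CPM stayed between 2.47 and 4.75 over all 30 libraries.

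The difference between the responses of doxorubicin-resistant and parental cells to 1 µM was 4.74 for CASP14, 3.28 for S100A8, 3.06 for SPRR1B and 2.48 for S100A9. It was 1.60 for IVL, 1.26 for SPRR3, 1.19 for TGM1, 0.98 for SPRR1A and 0.64 for SPRR2A, and SPRR2D (0.18) was not called. CASP14 and S100A8 put this comparison behind the choice, and as a description 9 members were past the threshold and higher and 0 lower, among 33.2% of all genes higher and 25.1% lower. Parental DMSO libraries enter these values too, and without the first the counts were 9 and 0, and without the second 8 and 0.

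Ruxolitinib lowered a subset of the members in parental cells. This comparison was not itself taken as used by the choice, but it enters the difference of ruxolitinib responses between the lines, which was, through S100A8. S100A8, for which no p-value is therefore given, had 341 and 316 CPM with ruxolitinib, against 853 and 1006 CPM in DMSO. It fell by 1.49 on the log2 scale (SE 0.11). S100A9 had 1333 and 1336 CPM with ruxolitinib, against 2452 and 3215 CPM in DMSO, and fell by 1.07 (SE 0.10, limma adjusted p = 6.37e-08). IVL had 3.83 and 3.23 CPM with ruxolitinib and 6.80 and 7.93 CPM in DMSO, and fell by 0.89 (SE 0.18, limma adjusted p = 0.00192). SPRR3 fell by 0.83, with 11.03 and 9.46 CPM under ruxolitinib, against 16.8 and 21.4 CPM in DMSO (SE 0.15, limma adjusted p = 5.14e-04), and SPRR1A by 0.92, with 2.14 and 1.38 CPM under ruxolitinib, against 3.32 and 5.19 CPM in DMSO (SE 0.19, limma adjusted p = 0.00197). None of these 5 genes had overlapping groups. The counts were 0 higher and 5 lower, among 5.51% of all genes called higher and 7.71% lower, and the members' median was -0.68, against -0.011 over all tested genes. CASP14 had 541 and 502 CPM with ruxolitinib and 548 and 602 CPM in DMSO (-0.14 ± 0.10, limma adjusted p = 0.429). SPRR1B (-0.52 ± 0.19), SPRR2A (-0.29 ± 0.16), SPRR2D (0.10 ± 0.14) and TGM1 (0.53 ± 0.18) did not pass the test. SPRR1A's adjusted p was 0.0549 without the second DMSO library and 0.0676 without the second ruxolitinib library. Without the first DMSO library 6 members were lower, and without the second 4, while all genes had 1726 and 1318 calls, against 1685 with both.

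Regulators and other S100 genes were counted beside these members. Of 22 regulators, 1 was higher and 8 lower, with a median of -0.29. JUN, an AP-1 subunit, averaged 33.2 ± 0.759 CPM with ruxolitinib and 59.97 ± 5.94 CPM in DMSO (-0.83 ± 0.09, limma adjusted p = 5.32e-07), and FOSL1 averaged 2.10 ± 0.284 CPM with ruxolitinib and 4.24 ± 0.563 CPM in DMSO (-0.76 ± 0.17, limma adjusted p = 0.0037). Of 14 other S100 genes and receptors, 1 was higher and 3 lower. S100P averaged 408 ± 8.75 CPM with ruxolitinib and 253 ± 36.6 CPM in DMSO (0.70 ± 0.10, limma adjusted p = 5.06e-05). Of 9 other caspases, 1 was higher and 4 lower, with the inflammatory caspase CASP4 at 54.2 ± 0.768 CPM with ruxolitinib and 77.2 ± 2.22 CPM in DMSO (-0.50 ± 0.08, limma adjusted p = 1.51e-04). Myeloid markers summed to 0.535 and 0.380 CPM with ruxolitinib and 0.567 and 1.19 CPM in DMSO.

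Ruxolitinib with 2.5 nM paclitaxel was set against 2.5 nM paclitaxel in parental cells, which SPRR1A puts behind the choice. SPRR1A had 2.14 and 2.13 CPM with both drugs, against 8.61 and 8.06 CPM with paclitaxel (-1.57 ± 0.19). SPRR1B had 13.6 and 13.9 CPM with both drugs and 26.6 and 31.8 CPM with paclitaxel (-1.03 ± 0.19), and SPRR3 had 10.5 and 10.6 CPM with both and 24.7 and 25.3 CPM with paclitaxel (-1.17 ± 0.15). S100A8 (-1.08 ± 0.11), S100A9 (-1.03 ± 0.10) and IVL (-0.78 ± 0.18) were lower too. SPRR2D had 3.28 and 3.16 CPM with both drugs and 2.64 and 3.11 CPM with paclitaxel, and CASP14 had 409 and 423 CPM with both and 398 and 399 CPM with paclitaxel. As a description, 0 members were past the threshold and higher and 6 lower, among 15.1% of all genes higher and 12.9% lower.

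In paclitaxel-resistant cells ruxolitinib lowered 1 of the 10 members by the same test, among 2.86% of all genes called higher and 4.06% lower. The comparison was not itself taken as used by the choice, but it too enters the difference of ruxolitinib responses, which was. S100A8, the member called, had 145 and 166 CPM with ruxolitinib, against 208 and 203 CPM in DMSO. It fell by 0.40 (SE 0.11), and no p-value is given since it put that difference behind the choice. This call was lost without either DMSO library or the first ruxolitinib library, where the difference was -0.381, -0.42 and -0.303. SPRR1A had 0.715 and 0.932 CPM with ruxolitinib and 1.64 and 1.5 CPM in DMSO (-0.50 ± 0.19), and IVL had 0.334 and 0.829 CPM with ruxolitinib and 1.35 and 0.890 CPM in DMSO (-0.43 ± 0.18). Neither passed the test. The members' median was -0.26, against 0.00046 over all tested genes. JUN (-0.68 ± 0.09) and FOSL1 (-0.65 ± 0.17) fell here too (limma adjusted p = 2.33e-05 and 0.0208), while PI3 rose to 15.2 and 14.9 CPM with ruxolitinib, against 7.84 and 7.56 CPM in DMSO (0.89 ± 0.11, limma adjusted p = 6.90e-06).

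Adding ruxolitinib to 6.5 nM paclitaxel in paclitaxel-resistant cells called none of the 10 by limma, among 3.28% of all genes, and none by limma-voom on recovered reads. An unadjusted limma p under 0.05 was met by 5, but the share of all genes at that threshold was not counted, so nothing is read from it. SPRR1A had 1.41 and 1.36 CPM with both drugs, against 2.60 and 2.84 CPM with paclitaxel (-0.64 ± 0.19, limma adjusted p = 0.0727), and TGM1 had 2.13 and 2.60 CPM with both and 1.14 and 1.21 CPM with paclitaxel (0.63 ± 0.18, limma adjusted p = 0.0531). Between the lines, the response to ruxolitinib alone differed for S100A8, by 1.09, and S100A9, by 0.84, which were the 2 members past the threshold, among 0.298% of all genes higher and 0.110% lower, a description. Both had smaller differences from DMSO in paclitaxel-resistant cells, where their DMSO levels were lower, and S100A8 was behind the choice. The count was 2 without either parental DMSO library.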

How the data were processed

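The deposited table holds log2(CPM + 1) values for 30 libraries, and the authors had scaled the CPM with TMM factors, as the deposited table is named. The submitters' processing notes name STAR 2.5.1b, edgeR and the build GRCh37 (hg19), and for the counter and annotation nothing is stated in the labels. The values give whole reads within 0.01 for all genes, and totals of 18443749 to 32669995 reads per library set the precision. Python 3.11.15 (pandas 2.3.3, numpy 2.4.6) read the table, and limma 3.58.1 in R 4.3.3 fitted 15 group means to the log2 values of the 12743 genes with at least 1 CPM in at least 2 libraries, with trended and robust spread, 15 residual and 8.08 prior degrees of freedom, two-sided tests and Benjamini-Hochberg adjustment over all genes tested, for 18 comparisons of which 3 are differences of responses between lines. The code was tested on simulated data. Members and gene lists were chosen with earlier results of these data known. Comparisons in which a member stood among the 12 largest called changes, among genes of at least 5 CPM, counted as used by that choice (10 of 18). Of the listed genes, those named were among the called ones with the largest changes in a comparison, and 1 gene is not reported here. The alternatives tried were no filter, a pseudocount of 0.25 CPM, median-of-ratios scaling, a replicate block, only the lines compared, limma-voom on recovered reads, a correction for GC content and length (transcripts for 95.3% of tested genes) and leaving out each library. Over 105 pairs of groups, same-numbered libraries deviated together in some pairs and in opposite directions in others. Correlations ran from -0.689 to 0.65 (median 0.0016), with 30 over 0.1 and 30 under -0.1. The number gave no constant direction, so numbers were not taken as pairs, and what the deviations share was not tested. RefSeq promoters are of GRCh38.p14, so no coordinates were joined to the table.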

Additional observations from a re-analysis of the deposited data

Results flagged for a closer look

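The difference between the responses of doxorubicin-resistant and parental cells to 1 µM doxorubicin was past the threshold used for calls in 9 members, a description since these values were behind the choice of genes. Each value is positive, which means higher, or less far below DMSO, in doxorubicin-resistant cells. CASP14 differed by 4.74, S100A8 by 3.28, SPRR1B by 3.06 and S100A9 by 2.48 on the log2 scale. IVL differed by 1.60, SPRR3 by 1.26, TGM1 by 1.19, SPRR1A by 0.978 and SPRR2A by 0.64, and the SPRR2A value rests on 2 and 1 reads in parental cells at 1 µM.

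For 10 nM paclitaxel, the responses of paclitaxel-resistant and parental cells differed by 1.75 for CASP14, 1.31 for S100A8 and 0.858 for S100A9, and by -0.865 for SPRR1A, -0.932 for SPRR2A and -0.622 for SPRR2D. For ruxolitinib, the responses of these lines differed by 1.09 for S100A8 and 0.838 for S100A9. These differences were among those seen when the genes were chosen, and they are given as values.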

How the results depend on the processing

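Of 180 differences of members, 92 were called. That count pools comparisons behind the choice with the others, so nothing is read from it, and the shares of all genes stand with each comparison above. Median-of-ratios scaling left the direction and the call of all 180 as they were, with shifts of the median gene of at most 0.092. Pseudocount 0.25 CPM left 171, no filter 173, limma-voom 173, the GC content and length correction 162 and a fit of only the lines compared 153 of 166. Of 840 values with a library left out, 43 lost and 5 gained a call. The direction turned in 3 differences that were called in either fit, and in 44 values, 37 of them with a library left out, where neither fit made a call. The cause was not tested: SPRR1A at 1 µM doxorubicin in parental cells was -0.603 after the GC correction, and SPRR2A and SPRR2D in the paclitaxel response of paclitaxel-resistant minus parental cells were 0.477 and 0.249 by limma-voom. Member calls moved by more than 1.5 times in 4 comparisons beside leaving out libraries, and by less in others, such as 10 to 8 for 10 nM paclitaxel in parental cells with the smaller pseudocount. For 65 nM doxorubicin in parental cells, 2 became 1 with the smaller pseudocount, without the filter and with only the line compared. For ruxolitinib in paclitaxel-resistant cells, 1 became 2, 0 and 5 under the same settings and 4 with the GC correction, while calls over all genes, 882 before, were 882, 800, 2154 and 1970. For ruxolitinib added to paclitaxel there, 0 became 1 with the smaller pseudocount, 3 with only that line and 2 with the GC correction. For the difference in paclitaxel response, 6 became 3 with the smaller pseudocount or limma-voom. With each library left out, these counts were 1 to 2, 0 to 1, 0 and 3 to 6, and those for 10 nM paclitaxel in paclitaxel-resistant cells 2 to 4. Calls among the 5 other lists with only the lines compared were 9 for 2.5 nM paclitaxel and 7 for 65 nM doxorubicin in parental cells, against 26 and 15, and in paclitaxel-resistant cells 3 for 6.5 nM paclitaxel, 23 for ruxolitinib and 11 for the combination, against 1, 15 and 6. With the GC correction they were 25 for 65 nM doxorubicin in parental cells, 14 for 350 nM in doxorubicin-resistant cells (against 5), and 5 and 16 for 6.5 nM paclitaxel and the combination in paclitaxel-resistant cells. For 6.5 nM paclitaxel they were 0 without the filter and by limma-voom, and for the difference in ruxolitinib response 1, against 2, with the smaller pseudocount, no filter, only the lines and limma-voom. Leaving out each library gave these lists 6 to 35, 2 to 21, 14 to 20 (against 24) and 8 to 23 (against 28) calls for 2.5 nM paclitaxel, 65 nM doxorubicin, ruxolitinib and the combination in parental cells, 1 to 3 for 350 nM doxorubicin, 0, 10 to 14 (against 20), 7 to 8 and 2 to 4 for 6.5 nM and 10 nM paclitaxel, ruxolitinib and the combination in paclitaxel-resistant cells, and 9 to 18 (against 16) and 1 to 3 for the differences in paclitaxel and ruxolitinib response. With the replicate block, 2 of the 180 differences lost their call, SPRR1A and SPRR2D in the difference of paclitaxel responses, where 4 members were called, and since the libraries share only a number this is not read as a weaker effect. Low levels limit SPRR2A, SPRR2D, TGM1 and IVL, which had few reads in paclitaxel-resistant cells.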
